A study of Homo sapiens with 6 samples.

Results

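The genes described here are the nuclear-encoded parts of the mitochondrial respiratory chain and of the mitochondrial ribosome. They were chosen by name: every gene name in either RNA table that begins with NDUF (complex I), UQCR (complex III), COX4 to COX8 (complex IV) or ATP5 (ATP synthase), the SDHA to SDHD genes (complex II), and MRPL or MRPS followed by a digit (large and small subunit of the mitochondrial ribosome). The choice used no measured value. It gave 61 of the 10661 gene names in the 2 tables. All 61 had a row in the SiHa table, among 9490 names, and 40 had one in the ME-180 table, among 8798.

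The study asked where the transcription factor p63 binds and how RNA levels change with its amount, in human cervical cancer cell lines. RNA came from ME-180 cells labelled as control or as p63 knockdown, and from SiHa cells carrying a vector or overexpressing p63, with 1 library in each group. A p63 immunoprecipitation and its input from ME-180 were not used here. The cells were at passages 13 to 15, ME-180 grown in McCoy's 5A medium and SiHa in DMEM, both with serum, penicillin and streptomycin. The column of the knockdown cells is headed shp63, and the labels used here say no more on how p63 was lowered, which form of p63 was overexpressed, for how long, or whether clones or pools of cells were used. With 1 library per group there is no spread between replicates: each 95% interval covers counting error only, and no difference between libraries was tested as a difference between conditions. RNA was taken from bulk cultures, so fewer cells of a type and less RNA per cell cannot be told apart.

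The respiratory chain passes electrons from NADH (complex I) and succinate (complex II) through complex III to oxygen at complex IV, and ATP synthase uses the proton gradient this builds to make ATP. A few core subunits are encoded by mitochondrial DNA and made on the mitochondrial ribosome. The other subunits, and all proteins of that ribosome, are encoded in the nucleus and imported, so that the complexes need both genomes to be expressed. Promoters of such nuclear genes are known for sites of NRF1, of the ETS factor GABP and of YY1.

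The table totals lay between 10046579 and 14207637 counts. TP63, which encodes p63, went from 5619 counts in the ME-180 control to 6 in the knockdown-labelled library, and from 7 in the SiHa vector library to 179 in the overexpression library. The 2 ME-180 libraries were far apart. Over 6555 genes whose transcript had a row in both tables, log2 (CPM + 1) correlated with a Pearson's r of 0.745 for the ME-180 pair and 0.991 for the SiHa pair. The knockdown-labelled library had an r of 0.857 with the SiHa vector library, above its r with its own control. CPM here means counts per 1000000 counts of the same table. All 5 squamous markers with a row were lower in the knockdown-labelled library, with a summed level of 71839 CPM in the control against 35.9 CPM, and both simple epithelial markers with a row were lower too (2710 against 131 CPM). The 5 fibroblast markers with a row summed to 133 against 169 CPM, with COL1A1 lower (1373 against 524 counts), FBN1 (53 against 984), COL3A1 (9 against 164) and PDGFRB (0 against 25) higher, and LUM at 2 and 1 counts. Endothelial, leukocyte and neural markers were at a summed 13.6, 50.6 and 34.0 CPM in the control and at 0.697, 7.27 and 18.6 CPM in the knockdown-labelled library. The part of these marker changes in the values below was not tested. In SiHa the 6 squamous markers with a row summed to 4159 CPM with the vector and 8932 CPM with p63. KRT17 alone was at 4134 and 8829 CPM. The 4 simple epithelial markers with a row summed to 2519 and 4574 CPM. Fibroblast and endothelial markers went from 37.6 to 27.2 and from 12.1 to 10.2 CPM, leukocyte and neural ones from 29.1 to 33.6 and from 211 to 348 CPM.

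Many genes of these families had no row. RefSeq lists 173 protein-coding genes whose current symbols fit the name patterns, among them 46 NDUF, 17 COX4 to COX8, 49 MRPL and 28 MRPS genes. The ME-180 table had rows for 18, 2, 1 and 2 names of these 4 families, and the SiHa table for 23, 10, 4 and 2. A missing row does not mean that a gene was silent. The mitochondrial ribosome is therefore seen here through 6 genes, and complex IV in ME-180 through no gene above 1 CPM. Of 23 mitochondrially encoded names searched, none had a row. Rows are RefSeq transcripts, and each gene is given by its transcript with the most counts. Of the 69 member transcripts in the ME-180 table, 67 (97.1%) carry the longer accession numbers given mostly to later-added transcripts, against 73.9% of all rows there and 67% of the 100 member transcripts in SiHa. A read can count towards several transcripts of a gene.

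In ME-180, the respiratory chain and mitochondrial ribosome genes mostly stayed within 2-fold between the 2 libraries, while 48.9% of all genes did not. Of the 40 genes, 37 reached 1 CPM in at least 1 library, the floor used for all counts of genes. NDUFV3 and the readthrough ATP5J2-PTCD1 were at least 2-fold higher in the knockdown-labelled library (2 genes, against 28.2% of 6783 genes), and NDUFB5 was at least 2-fold lower (1 gene, against 20.6%). The other 34 genes (91.9%) lay within 2-fold, against 51.1% of all genes. With TMM, a scaling that trims extreme genes, 2 were higher and 3 lower, as NDUFB4 and ATP5H passed 2-fold too, against 22.0% and 24.4% of all genes. At 1.5-fold, 15 of 37 were higher, near the 40.6% of all genes, and 3 were lower, against 27.0%. The log2 ratios of the 37 genes had a median of 0.43, quartiles of 0.15 and 0.69 and an interquartile range of 0.54. Over all genes the median was 0.28, the quartiles -0.70 and 1.12 and the interquartile range 1.82. The narrower range was also seen beside genes of like abundance: of genes with a mean of at least 50 CPM, 40.4% of 2287 were past 2-fold, against 3 of the 30 such genes of this set.

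**Figure D1:**
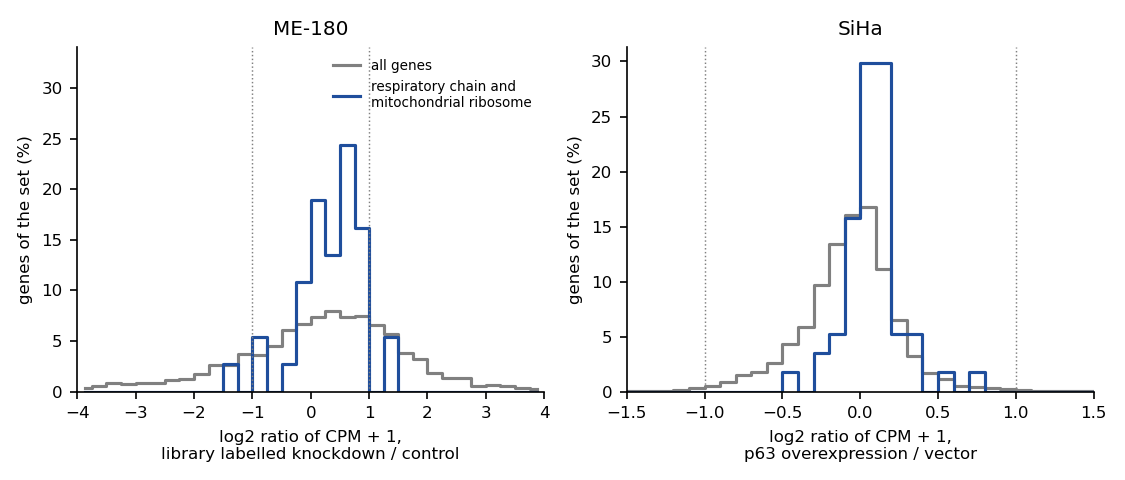
Distribution of log2 ratios of CPM + 1 in ME-180 (left, knockdown-labelled library over control) and SiHa (right, p63 overexpression over vector), as the percentage of the genes of each set at 1 CPM or more. Blue lines are the respiratory chain and mitochondrial ribosome genes (37 and 57 genes), grey lines all genes (6783 and 6996). Dotted lines mark 2-fold, and the axis spans differ between the panels. The blue lines are the narrower ones in both, though in SiHa the ranges were not compared at like abundance.

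More of the genes were above than below the control: 29 had a log2 ratio above 0 and 8 below, against 58.4% of all genes above 0. Their summed counts went from 59686 to 70576, or from 0.552% to 0.702% of the table, a ratio of 1.27 (95% counting interval 1.26 to 1.29). This ratio and its interval rest on table totals and were not recomputed with other scalings. TMM replaces the totals of 10804272 (control) and 10046579 (knockdown-labelled) by 9800528 and 11075523, so with it the ratio and its interval would be lower. The median depends on the scaling, because the median of all genes is itself 0.28 above 0. With TMM, the median of all genes was 0.00, the median of this set 0.15, and 22 of 37 genes were above 0. Directions below are given for table totals, with the TMM value, or the value relative to the median of all genes, where it has the other sign in ME-180.

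In complex I, the core subunits NDUFS1 and NDUFV1 had more counts in the knockdown-labelled library, both within 2-fold. NDUFS1, an iron-sulphur subunit of the arm that takes up electrons, had 554 control counts (51.3 CPM) and 1002 (99.7 CPM) in the knockdown-labelled library, a ratio of 1.95 (1.75 to 2.16). Its 4 transcripts gave log2 ratios from 0.87 to 1.03. NDUFV1, the subunit that oxidises NADH, went from 3393 to 5113 counts (ratio 1.62, 1.55 to 1.69).

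The 12 accessory subunits of complex I did not move together. Their median was 0.20, and -0.08 with TMM, with 8 above 0 and 4 below. NDUFV3, which joins the NADH-oxidising module, had 330 control counts (30.5 CPM) and 884 (88.0 CPM) in the knockdown-labelled library, 2.88-fold higher (2.54 to 3.28). NDUFB5, a subunit of the membrane arm, had 2038 counts (188.6 CPM) against 672 (66.9 CPM), 2.82-fold lower (2.58 to 3.08). The other NDUFB5 transcript in the table gave a log2 ratio of -1.35, near the -1.48 of the first. NDUFB4, also of the membrane arm, had 2985 counts (276 CPM) against 1476 (147 CPM), 1.88-fold lower (1.77 to 2.003). Of the complex I subunits named so far, NDUFV1, NDUFS1 and NDUFV3 lay above the control, and NDUFB4 and NDUFB5 below it. The membrane arm as a whole did not follow NDUFB4 and NDUFB5: NDUFB11 was at a log2 ratio of 0.64 and NDUFB3 at 0.29, while NDUFB6 was at -0.03 and -0.31 relative to the median of all genes. NDUFC2 was at 0.87 and NDUFC1 at 0.42. NDUFA11, NDUFA12 and NDUFS5, the accessory subunit with the most counts (4379 and 4519), were at 0.22, 0.18 and 0.15, all 3 below 0 with TMM, and NDUFA2 was at -0.09. The 2 assembly factors measured, which build complex I without staying in it, were at 0.59 (NDUFAF7, 243 and 345 counts) and -0.01 (NDUFAF5, 185 and 171 counts).

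**Figure D2:**
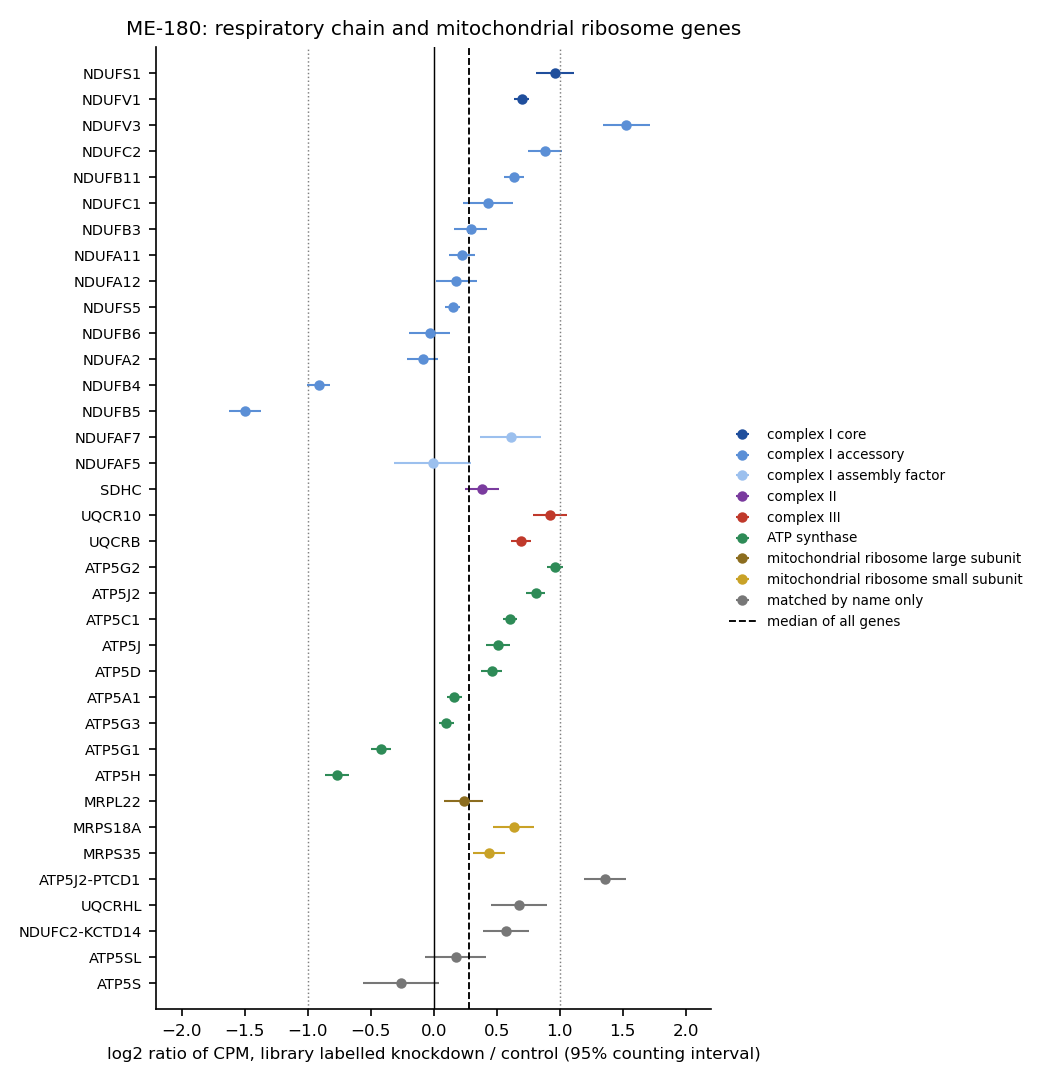
Log2 ratio of CPM, knockdown-labelled library over control in ME-180, for 36 of the 37 genes at 1 CPM or more, coloured by complex; bars are 95% counting intervals, with 1 library per group. Dotted lines mark 2-fold and the dashed line the median of all genes (0.28); NDUFB5 lies beyond the lower line, NDUFV3 and ATP5J2-PTCD1 beyond the upper one.

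Complexes II and III had few genes in the ME-180 table, all above 0. SDHC, a membrane anchor of complex II, went from 818 to 992 counts (ratio 1.30, 1.19 to 1.43). UQCR10, a small subunit of complex III, went from 733 to 1292 counts (ratio 1.90, 1.73 to 2.08), and UQCRB, its quinone-binding subunit, from 2226 to 3347 (ratio 1.62, 1.53 to 1.71). Complex IV cannot be described in ME-180. Its 2 genes with a row, the muscle isoform COX7A1 (8 counts in the control and 0 in the knockdown-labelled library) and the testis isoform COX8C (1 and 3 counts), were both below 1 CPM.

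For ATP synthase, 7 of 9 genes were above 0, with a median log2 ratio of 0.46 (0.18 with TMM). Within the catalytic head and its stalk, the gamma subunit ATP5C1 went from 5071 to 7172 counts (ratio 1.52, 1.47 to 1.58), the delta subunit ATP5D was at a log2 ratio of 0.46, and the alpha subunit ATP5A1 was at 0.16 (4516 and 4703 counts) and at -0.12 relative to the median of all genes. In the peripheral stalk, ATP5H (subunit d) had 2558 control counts (237 CPM) and 1396 (139 CPM) in the knockdown-labelled library, 1.70-fold lower (1.60 to 1.82), whereas ATP5J (factor 6) was at 0.51. ATP5J2, a membrane subunit, went from 2267 to 3690 counts (log2 ratio 0.80). The readthrough ATP5J2-PTCD1 had 421 counts (39.0 CPM) against 1003 (99.8 CPM), 2.56-fold higher (2.28 to 2.88), and can share reads with ATP5J2.

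The 3 genes of the c ring, the rotating ring of ATP synthase, differed among themselves although they encode the same mature protein. ATP5G1 had 3338 control counts (309 CPM) and 2323 (231 CPM) in the knockdown-labelled library, 1.34-fold lower (1.27 to 1.41). ATP5G2 had 3068 counts (284 CPM) against 5563 (554 CPM), a ratio of 1.95 (1.87 to 2.04). ATP5G3 had 4448 against 4435 counts, a ratio of 1.07 (1.03 to 1.12), or a log2 ratio of -0.18 relative to the median of all genes. Added up, the 3 genes had 1005 CPM in the control and 1226 CPM in the knockdown-labelled library. On table totals this is a ratio of 1.22 (1.19 to 1.25). It was not recomputed with TMM, which moves the median log2 ratio of all genes from 0.28 to 0.00 and would lower this ratio as well. Over the SiHa libraries the sum had a ratio of 0.962 (0.936 to 0.989).

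The 3 mitochondrial ribosome genes in the ME-180 table were close to the median of the whole set. In the small subunit, MRPS18A went from 528 to 762 counts (ratio 1.55, 1.39 to 1.74) and MRPS35 from 886 to 1116 (ratio 1.35, 1.24 to 1.48). In the large subunit, MRPL22 went from 655 to 719 (ratio 1.18, 1.06 to 1.31), with a log2 ratio of 0.24, and -0.04 with TMM. Other names that fit the patterns are not chain subunits: the 2 readthroughs, UQCRHL (a copy of the complex III gene UQCRH, log2 ratio 0.66), ATP5SL (a complex I assembly factor, 0.17, and -0.11 relative to the median of all genes) and ATP5S (-0.24). Counts of copies and readthroughs are uncertain, since the counting could split reads between them and their parent genes.

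In the authors' deposited table for ME-180, 7 of the 69 member transcripts passed an adjusted p of 0.05 (2 higher and 5 lower), against 16.4% of 15189 transcripts higher and 20% lower. The 2 higher ones in the authors' deposited table were NDUFV3 (log2 fold change 1.21, adjusted p 0.0150) and ATP5J2-PTCD1 (1.04, adjusted p 0.0393). The lower ones in the authors' deposited table were both NDUFB5 transcripts (-1.82 and -1.69, adjusted p 0.000119 and 0.000383), NDUFB4 (-1.23, adjusted p 0.0109), ATP5H (-1.09, adjusted p 0.0267) and COX7A1 (-6.13, adjusted p 0.0354, on 8 counts against 0). These p-values rest on 1 library per group, so they do not measure a spread between replicates.

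Promoter sequence is shown for 3 of the genes that stood farthest from the rest in ME-180: NDUFB4 and ATP5H, which were lower, and NDUFV3, which was higher. NDUFB5, the lowest in ME-180, could not be matched to a RefSeq promoter and is not shown. Each run is the 250 bases before the gene's start in RefSeq on GRCh38.p14, 5′ to 3′ on the gene's strand: chr3:120596086-120596335, plus strand, for NDUFB4, chr17:75046970-75047219, minus strand, for ATP5H (current symbol ATP5PD), and chr21:42893059-42893308, plus strand, for NDUFV3. Capitals mark matches on either strand to the NRF1 palindrome (GCGC, any 2 bases, GCGC), to CCGGAAG (ETS factors, among them GABP) or to a YY1 motif.
NDUFB4: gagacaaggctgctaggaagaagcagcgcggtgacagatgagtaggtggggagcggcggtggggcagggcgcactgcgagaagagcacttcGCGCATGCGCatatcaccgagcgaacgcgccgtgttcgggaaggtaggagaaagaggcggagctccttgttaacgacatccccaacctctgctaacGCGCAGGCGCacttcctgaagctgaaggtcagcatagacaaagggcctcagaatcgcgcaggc
ATP5H: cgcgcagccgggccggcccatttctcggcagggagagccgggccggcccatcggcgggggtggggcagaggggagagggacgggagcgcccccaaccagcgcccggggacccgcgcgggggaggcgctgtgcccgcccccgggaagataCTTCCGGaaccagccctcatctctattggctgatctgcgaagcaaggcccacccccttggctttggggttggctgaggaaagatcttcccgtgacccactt
NDUFV3: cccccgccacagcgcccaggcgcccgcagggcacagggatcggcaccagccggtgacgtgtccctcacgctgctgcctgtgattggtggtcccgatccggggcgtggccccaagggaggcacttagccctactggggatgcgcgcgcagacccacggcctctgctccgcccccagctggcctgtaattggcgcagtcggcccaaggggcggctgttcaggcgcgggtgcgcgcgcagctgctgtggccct

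NDUFB4 held 2 NRF1-type matches in this run, ATP5H held 1 ETS-type match on the other strand, and NDUFV3 held 0 matches. Over the 300 bases from 250 before to 50 after the start, 46 of the 61 genes could be matched to a RefSeq promoter. The NRF1 letters were in 9 of the 46 (19.6%), against 8.78% of 27305 promoters and 13.4% of promoters of genes at the floor. The ETS letters were also in 9 of 46, against 10.7% and 14.6%. The YY1 letters were in 6 of 46 (13.0%), against 1.28% and 2.17%. These 6 were ATP5J, MRPL22, MRPS18A, NDUFA6, NDUFS4 and SDHB. No promoter of the 46 had matches of different motifs that overlapped. Among matched genes above 0 in ME-180 (19 genes), 4 held the NRF1, 3 the ETS and 3 the YY1 letters. Among those below 0 (6 genes), 2, 1 and 0 did. A match is a description of the letters, not of binding.

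In SiHa, these genes, like most genes, had nearly the same levels with the vector and with p63. Of the 61 genes, 57 reached 1 CPM. Of these, 0 were higher by 2-fold or more and 0 lower by as much, against 0.572% and 0.743% of 6996 genes. As 98.7% of all genes lay within 2-fold, the 0 calls are near the share over all genes and not particular to this set. The log2 ratios had a median of 0.09 and an interquartile range of 0.155, against -0.05 and 0.335 over all genes. Of these 57 genes, 43 had a mean of at least 50 CPM, against 2165 of the 6996. The interquartile ranges were not compared among genes of like abundance in SiHa. Of the 57, 42 were above 0 and 15 below, while 42.6% of all genes were above 0. With TMM, 49 of 57 were above 0, against 49.3% of all genes, and the genes printed below between -0.03 and 0.00 change sign. The share above 0 also depends on abundance. Among genes with a mean of at least 100 CPM, 52.8% of all genes and 27 of 35 of these genes were above 0. Summed counts went from 248614 to 253035, or from 1.75% to 1.85% of the table, a ratio of 1.06 (1.05 to 1.06). In the authors' deposited table, 0 of the 100 member transcripts had an adjusted p below 0.05, against 0.0904% of 16600 transcripts higher and 0.0422% lower.

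The farthest from 0 among genes with at least 100 counts was NDUFS4, an accessory subunit of complex I. It had 1215 counts (85.5 CPM) with the vector and 1713 (125 CPM) with p63, a ratio of 1.46 (1.36 to 1.58). It had no row in ME-180. Next in complex I came NDUFAF5 (log2 ratio 0.32, 174 and 212 counts) and NDUFA11 (0.29, 1634 and 1933 counts). The core subunits NDUFV1, NDUFS8 and NDUFS1 were at 0.14, 0.06 and -0.11. Of the genes that stood apart in ME-180, NDUFV3 was at -0.01 (636 and 607 counts), NDUFB4 at 0.06 and ATP5H at 0.13. The NDUFB5 transcript with the most counts in SiHa, at -0.01 (713 and 680 counts), had no row in ME-180. The NDUFB5 transcripts with a row in both tables were at 0.29 (511 and 603 counts) and 0.26 (433 and 504 counts).

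**Figure D3:**
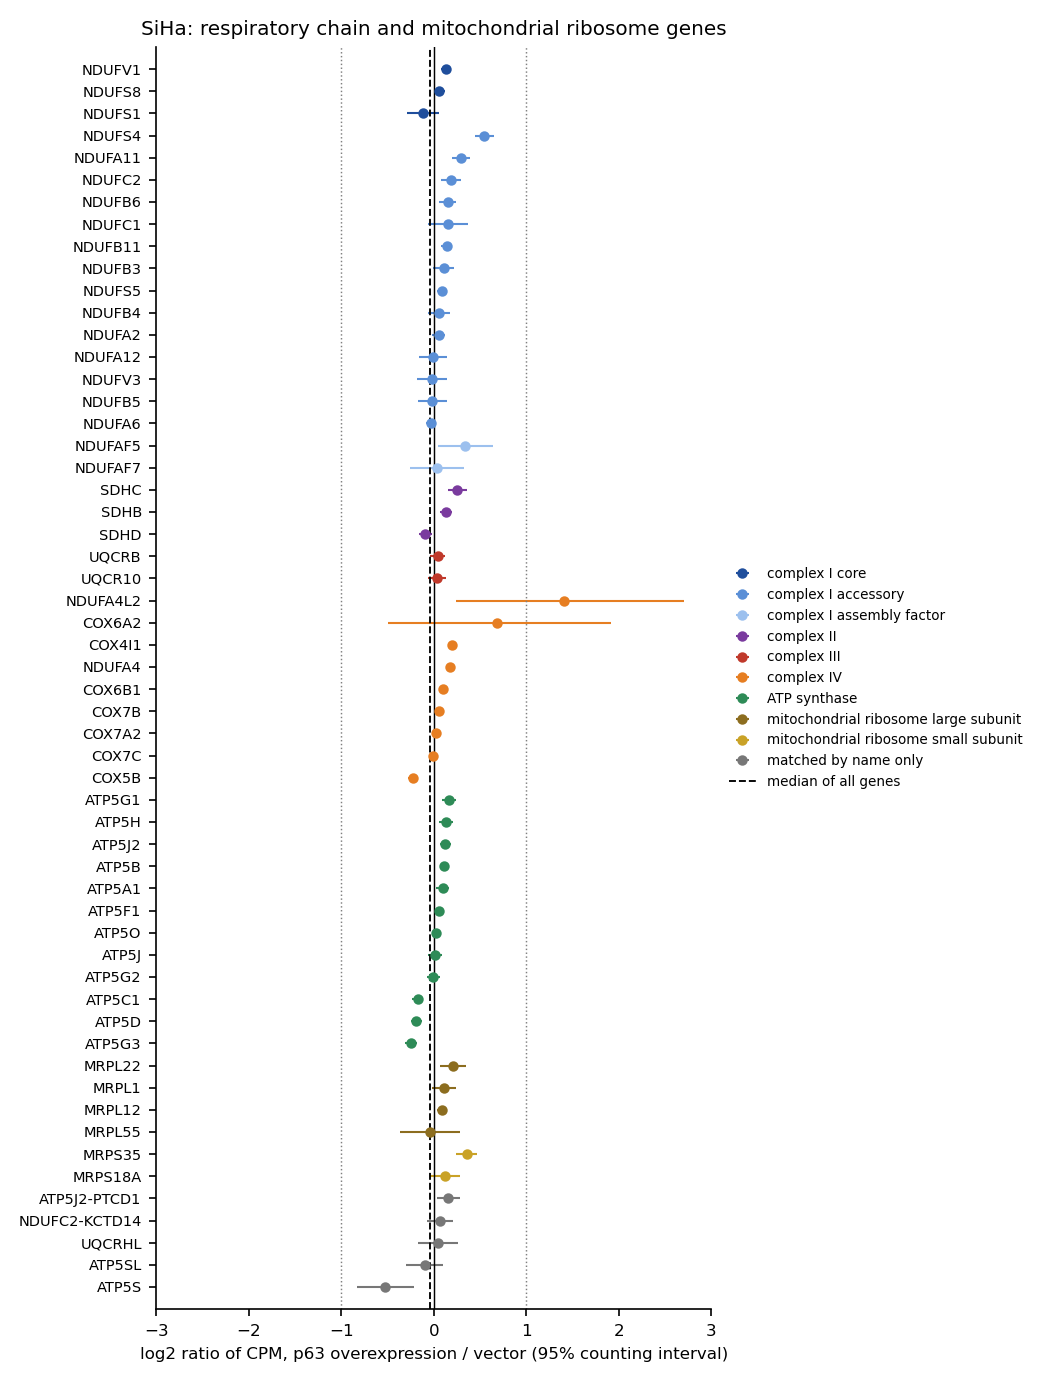
Log2 ratio of CPM, p63 overexpression over vector in SiHa, for 56 of the 57 genes at 1 CPM or more, coloured by complex; bars are 95% counting intervals, with 1 library per group. Dotted lines mark 2-fold and the dashed line the median of all genes (-0.05); most points lie within a narrow band around 0, and the wide bars of NDUFA4L2 and COX6A2 reflect fewer than 25 counts (plotted ratios have no pseudocount, with which NDUFA4L2 is at 0.71).

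Complex IV could be described in SiHa. COX4I1, the common isoform of subunit 4, had 29140 counts (2051 CPM) with the vector and 32257 (2356 CPM) with p63, a ratio of 1.15 (1.13 to 1.17). COX5B went the other way, with 7258 and 5973 counts and a ratio of 0.854 (0.825 to 0.884). NDUFA4, now counted with complex IV, was at a log2 ratio of 0.18 (8067 and 8784 counts), COX6B1 at 0.10, COX7B at 0.06, COX7A2 at 0.02 and COX7C at -0.01. The tissue isoforms were all low. NDUFA4L2, the hypoxia-induced relative of NDUFA4, had 9 and 23 counts (0.633 and 1.68 CPM; ratio 2.65, 1.18 to 6.51), and the muscle isoform COX6A2 had 11 and 17. COX6B2 (5 and 3 counts), COX7A1 (0 and 3) and COX8C (1 and 0) were below 1 CPM in both libraries.

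In complex II, the anchors SDHC and SDHD lay on either side of 0: SDHC had 1537 and 1770 counts (ratio 1.20, 1.12 to 1.28) and SDHD 3447 and 3122 (ratio 0.940, 0.895 to 0.987). The iron-sulphur subunit SDHB had 3653 and 3856 counts (log2 ratio 0.13). Both complex III genes, UQCRB and UQCR10, were at 0.04. In ATP synthase, the beta subunit ATP5B, the member with the most counts (46391 and 48440), was at 0.12. ATP5G3, ATP5D and ATP5C1 were the lowest of the synthase genes, at -0.25, -0.19 and -0.17, and ATP5G1 and ATP5G2 were at 0.16 and 0.00. ATP5S was the lowest name of the set, with 225 and 151 counts (log2 ratio -0.49), although its other transcript was at -0.02. In the mitochondrial ribosome, MRPS35 had 1092 and 1347 counts (ratio 1.28, 1.18 to 1.39), MRPL22 was at 0.21, MRPS18A at 0.12, MRPL1 at 0.11, MRPL12 (6074 and 6219 counts) at 0.09 and MRPL55 at -0.03. The medians of the 10 groups of genes lay between 0.04 and 0.24. Of 18 genes with more than 1 transcript in the SiHa table, 8 had transcripts on both sides of 0, so directions of this size depend on the transcript.

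Across the 2 cell lines, 37 genes could be followed in all 4 libraries on the same transcript. The tables were totalled separately, so levels set across them are a description. NDUFB5 was at 188.6 CPM in control ME-180 cells, 66.9 in the knockdown-labelled library, 36.0 in SiHa with the vector and 44.0 in SiHa with p63. NDUFB4 was at 276, 147, 83.3 and 86.6 CPM in the same order. For both, the ME-180 control was the highest of the 4 and the knockdown-labelled library lay between it and SiHa. They were also the 2 genes at least 2-fold above the SiHa vector library in the ME-180 control, and 0 genes were 2-fold below it, while 36.0% of 6555 genes differed by 2-fold in either direction. ATP5H was at 237, 139, 173 and 190 CPM, so here the knockdown-labelled library was below both SiHa libraries. Of the 29 genes above 0 in ME-180, the knockdown-labelled library was the highest of the 4 libraries for 24, and for 5 a SiHa library was higher. The same share was not counted over all genes. The median log2 ratio of the knockdown-labelled library over the SiHa vector library was 0.53 for the 37 genes and 0.61 over all 6555. The count of 24 is therefore not a trait shown to be particular to this set. Among the 24, NDUFV3 was at 30.5, 88.0, 44.8 and 44.3 CPM, NDUFS1 at 51.3, 99.7, 40.0 and 38.4, and ATP5G2 at 284, 554, 251 and 250. For others the control was the one apart: UQCR10 was at 67.8, 129, 119 and 122 CPM, and ATP5J2 at 210, 367, 341 and 371. NDUFB11, one of the 5, was at 190, 296, 337 and 371 CPM. Over the 37 genes the same correlations were 0.909 for the ME-180 pair, 0.994 for the SiHa pair and 0.954 for the knockdown-labelled library with the SiHa vector library, each higher than over all 6555 genes.

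**Figure D4:**
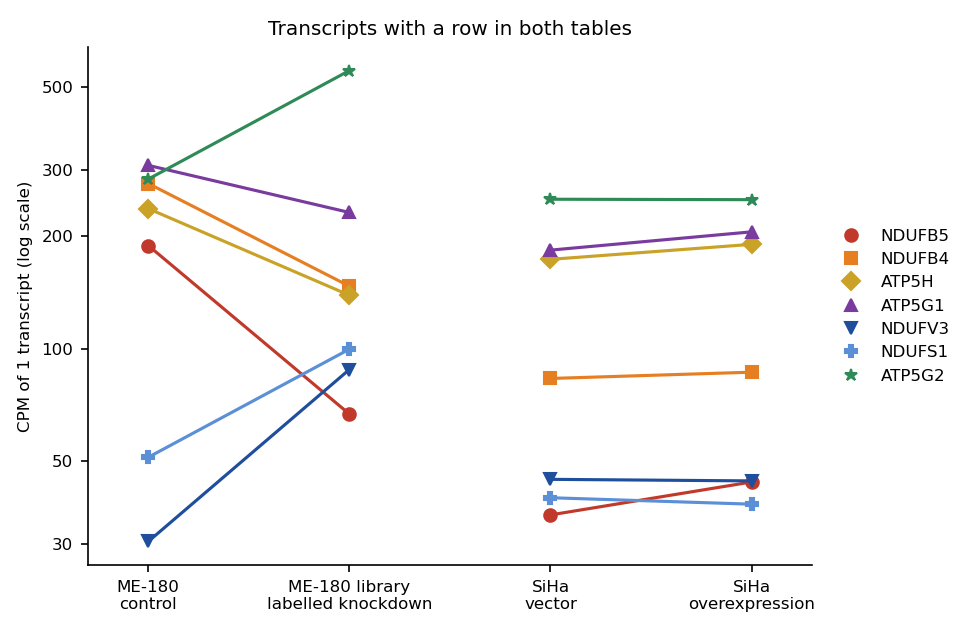
CPM (log scale) of 7 genes in the 4 RNA libraries, each on 1 transcript with a row in both tables; lines join the 2 libraries of a cell line, and each point is 1 library. NDUFB5 and NDUFB4 are highest in the ME-180 control, NDUFV3, NDUFS1 and ATP5G2 in the knockdown-labelled library, and the SiHa pairs are nearly level.

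Other genes of mitochondrial upkeep were mostly above 0 in ME-180, with calls in both directions. Over 7 lists (regulators of biogenesis, further assembly factors, electron carriers, translation factors and tRNA synthetases, further ribosome proteins and their assembly, protein import, and the tricarboxylic acid cycle), 60 listed genes had a row, all at the floor. Of these, 23 were at least 2-fold higher and 5 lower in the knockdown-labelled library, against 28.2% and 20.6% of all genes, with a median log2 ratio of 0.81 and 48 above 0. With TMM, 16 were higher and 6 lower, against 22.0% and 24.4% of all genes, with a median of 0.53.

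Of 8 regulators of mitochondrial biogenesis, 5 were higher and 1 lower (4 and 1 with TMM); the shares over all genes just given apply to each list here. The lower one was NFE2L2, an oxidative stress regulator (1394 and 530 counts), and PPARGC1B, a coactivator, was at -0.57. C10orf2, the helicase of mitochondrial DNA, had 119 control counts and 592 in the knockdown-labelled library (ratio 5.35, 4.39 to 6.57). TFAM, which packages mitochondrial DNA and starts its transcription, had 516 and 1705 (ratio 3.55, 3.22 to 3.93). GABPA, the DNA-binding part of GABP, had 455 and 1125 (ratio 2.66, 2.38 to 2.97), whereas NRF1 was at a log2 ratio of 0.38 (281 and 344 counts). Of the 6 protein import genes, 4 were higher and 0 lower (3 and 0 with TMM), among them TIMM17B (499 and 2043 counts) and TIMM50 (2761 and 6372) of the inner membrane translocase and TOMM6 (1764 and 4678) of the outer one. Of 10 translation factors and tRNA synthetases, 5 were higher and 1 lower (2 and 1 with TMM): NARS2, an asparagine tRNA synthetase, had 211 and 691 counts, the initiation factor gene MTIF2 609 and 1628, and MRRF, for ribosome recycling, 929 and 349. Of 6 further ribosome genes, 4 were higher and 0 lower (3 and 0 with TMM), among them the small subunit protein gene DAP3 (390 and 933 counts), the rRNA methyltransferase NSUN4 (116 and 396) and RPUSD4 (305 and 879), a pseudouridine synthase.

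Of 15 assembly factors outside the name patterns, 3 were higher and 0 lower (2 and 1 with TMM). The higher ones were BCS1L for complex III (134 and 564 counts), TMEM126B for complex I (179 and 526) and SCO2 for complex IV (61 and 125). SCO2 was just past 2-fold, at a log2 ratio of 1.02. COA3 was the lowest of the 15, within 2-fold at -0.93 (3584 and 1743 counts). Of 5 genes for electron carriers and electron entry, 0 were higher and 2 lower, with a median of -0.43. AIFM1, a flavoprotein needed to build complex I, was just within 2-fold at 0.99 (726 and 1350 counts), COQ7 of ubiquinone synthesis was at 0.44, and GPD2, the mitochondrial glycerol phosphate dehydrogenase, was at -0.43. The 2 lower genes were both subunits of the electron transfer flavoprotein, which feeds electrons from fatty acid oxidation into the chain: ETFB had 4324 control counts (400 CPM) and 1278 (127 CPM) in the knockdown-labelled library, and ETFA 10896 (1008 CPM) and 4862 (484 CPM). The tricarboxylic acid cycle list also holds pyruvate dehydrogenase genes. Of its 10 genes, 2 were higher and 1 lower. The higher ones were SUCLG2 (187 and 598 counts) and PDHB of pyruvate dehydrogenase (1165 and 2881), and the lower one was OGDH (1981 and 852).

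**Figure D5:**
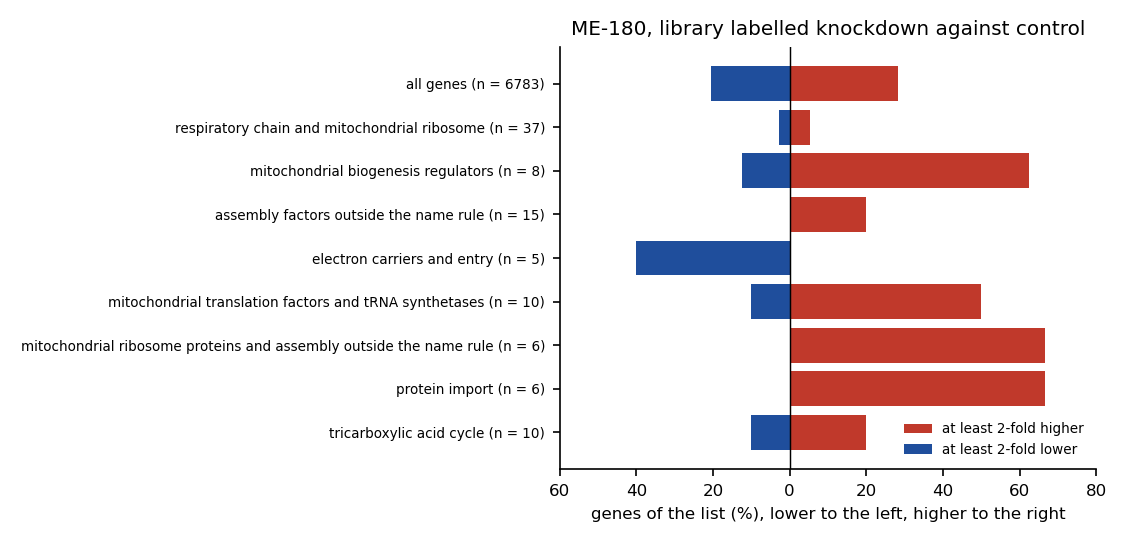
Percentage of the genes of each group or list at 1 CPM or more that were at least 2-fold higher (right) or lower (left) in the ME-180 knockdown-labelled library than in the control, with the number of genes in parentheses. All genes are shown for comparison (28.2% higher, 20.6% lower); several lists have fewer than 10 genes.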

How the data were processed

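For each cell line the authors deposited counts per RefSeq transcript of 2 libraries, beside a log2 fold change, p-values and adjusted p-values. The submitters' processing notes name TopHat, Cufflinks, DESeq2 and hg19, without roles; how reads were counted, and with which strand setting, is not given in the sources used here. CPM are counts per 1000000 counts summed over all rows of the library's table, and each name was represented by its transcript with the most CPM. A spreadsheet date stood in place of 32 names in ME-180 and 31 in SiHa, which were taken from RefSeq identifiers. Log2 ratios are of CPM plus a pseudocount of 1. A gene was called at 2-fold with at least 1 CPM in either library. No p-value was computed. Count ratios have exact 95% conditional binomial intervals and are without pseudocount. A count of 3 was taken as the lower limit of detection, between 0.211 and 0.299 CPM. TMM (edgeR 4.0.16) and DESeq2 1.42.0 size factors served as other scalings only. The call rule was tested on simulated counts. Named genes were those called, the 6 highest and 6 lowest ratios per experiment with at least 100 counts, the member with the most counts in each group, isoform sets, and up to 3 genes per pathway list; others were named after their values were seen. The members and lists were chosen with earlier results of these data known. Promoters are RefSeq's, on GRCh38.p14. The deposited p63 peaks were not used here, and 1 member is counted in totals and medians but not reported here by name.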

Additional observations from a re-analysis of the deposited data

How the results depend on the processing

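No paired analysis was possible because each group has 1 library, which also allows no leaving out of replicates. Other pseudocounts, scalings, floors, transcript choices and call sizes gave 74 values for the counts and medians of the set. Of these, 61 stayed near the main value and 13 moved. A change of direction was defined for the medians only, and none of the medians changed direction. In ME-180 the median log2 ratio of 0.43 became 0.15 with TMM, 0.15 with centring on all genes, 0.16 with DESeq2 size factors and 0.12 with the authors' deposited log2 fold change, the last an alternative added after the data were seen. These 4 settings move the median of all genes from 0.28 to between -0.01 and 0.01. The count of lower genes in ME-180 rose from 1 to 3 under these 4 settings and also with a 1.5-fold call: NDUFB4 and ATP5H joined NDUFB5 (with TMM at -1.19 and -1.04). With a 1.5-fold call, 15 genes were higher in ME-180, against 40.6% of all genes. In SiHa the count of higher genes became 1 with a pseudocount of 0.1, with a 1.5-fold call and with the authors' deposited log2 fold change, in each case NDUFA4L2 with its 9 and 23 counts. Genes under 25 counts, such as the tissue isoforms of complex IV, cannot be resolved at this depth.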

Other observations

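In SiHa, the regulators of mitochondrial biogenesis were mostly below 0, all within 2-fold. Of the 10 with a row, 1 was above 0, against 42.6% of all genes. The median log2 ratio was -0.12, against -0.05 over all genes. TFAM had 1255 counts with the vector and 960 with p63 (ratio 0.794, 0.729 to 0.864), C10orf2 had 353 and 266 (ratio 0.782, 0.664 to 0.919), and MYC, a growth-promoting transcription factor, had 3063 and 2100 (ratio 0.711, 0.673 to 0.752). The protein import list did not lean either way, with 4 of 8 genes above 0 and a median of 0.001. Within it, the mitochondrial chaperonin genes HSPD1 (15502 and 12343 counts) and HSPE1 (8382 and 7337) had log2 ratios of -0.28 and -0.14. In the list of the tricarboxylic acid cycle and pyruvate dehydrogenase, 11 of 12 genes were above 0, with a median of 0.11. Among them were SUCLG2 (360 and 449 counts) and PDHA1 of pyruvate dehydrogenase (1541 and 1816). With transcripts summed, 10 of 12 genes of this list and 2 of the 10 regulators were above 0. In all 7 lists 0 genes reached 2-fold in SiHa, against 0.572% of all genes higher and 0.743% lower, so 0 is near the share over all genes. Whether the 2 cell lines differ was not tested.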
